A study of Homo sapiens with 10 samples.

Results

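The 7 human APOBEC3 genes, APOBEC3A, APOBEC3B, APOBEC3C, APOBEC3D, APOBEC3F, APOBEC3G and APOBEC3H, were followed among 61533 genes counted by RNA-seq in a bladder cancer cell line and its cisplatin-resistant derivative. They are the members of the family listed by name, matched to the count tables through their Ensembl identifiers. The family was selected on earlier results of the same libraries, in particular its lower counts in T24R2, so the differences of the 7 genes between the lines are given as a description and carry no p-value. The 10 libraries, taken at day 3 of culture, were 5 of T24, an established line from a human bladder carcinoma, and 5 of T24R2, a subline selected from T24 by repeated exposure to cisplatin. Cisplatin is a platinum drug that crosslinks DNA. The labels list 1 medium for both lines, RPMI with fetal bovine serum and antibiotics and without the drug, whereas the methods of the study keep T24R2 in cisplatin, so resistance and drug exposure cannot be told apart. T24R2 is a derivative of 1 parental line, and no untreated culture passaged alongside it was among the samples. The replicates are not described as separate cultures, so p-values and SDs measure the spread between these libraries.

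APOBEC3 proteins are zinc-dependent cytidine deaminases that convert cytosine to uracil in single-stranded DNA. They arose by tandem duplication, carry either a single zinc-binding domain or a pair of them, and are best known for restricting retroviruses and retrotransposons. In urothelial cancer, APOBEC3A and APOBEC3B are regarded as the main sources of C-to-T and C-to-G mutations at TC dinucleotides. Uracil left in DNA is removed by the uracil glycosylase UNG and the base excision repair pathway. Transcription of the family has been tied to interferon signalling, to NF-kB and, for APOBEC3B, to the cell cycle repressor complex DREAM.

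The family occupies 151 kb of the long arm of chromosome 22, chr22:38952741-39104067 in hg38, with all 7 genes on the plus strand in the order APOBEC3A, APOBEC3B, APOBEC3C, APOBEC3D, APOBEC3F, APOBEC3G and APOBEC3H. APOBEC3A, APOBEC3C and APOBEC3H each encode 1 zinc site, whereas APOBEC3B, APOBEC3D, APOBEC3F and APOBEC3G each encode 2. The zinc site nearest the C terminus lies within 1 exon in every member. It is shown from the His codon to the second of its Cys codons because near-identical copies bear on which reads can be placed, with the codons of the zinc-site His, Glu, Cys and Cys in capitals. The sequences are those of the hg38 plus strand, 5′ to 3′, located with the canonical transcripts of GENCODE release 44.
APOBEC3B, exon 6, chr22:38991365-38991475: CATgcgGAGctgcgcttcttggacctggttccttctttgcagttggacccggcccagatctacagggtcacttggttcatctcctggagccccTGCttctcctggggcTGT
APOBEC3C, exon 3, chr22:39017787-39017891: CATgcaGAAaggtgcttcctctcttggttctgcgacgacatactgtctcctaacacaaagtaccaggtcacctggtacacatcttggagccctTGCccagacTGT
APOBEC3F, exon 6, chr22:39052095-39052199: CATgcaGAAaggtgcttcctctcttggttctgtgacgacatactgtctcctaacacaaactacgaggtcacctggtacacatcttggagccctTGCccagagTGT
APOBEC3G, exon 6, chr22:39086312-39086416: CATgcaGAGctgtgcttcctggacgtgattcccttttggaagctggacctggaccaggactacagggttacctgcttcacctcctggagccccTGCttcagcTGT
APOBEC3H, exon 3, chr22:39101246-39101350: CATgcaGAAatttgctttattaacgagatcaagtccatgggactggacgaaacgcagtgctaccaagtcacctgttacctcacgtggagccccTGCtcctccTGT
The site of APOBEC3A, in exon 3 at chr22:38961420-38961530, was identical to that of APOBEC3B over all 111 bases. The site of APOBEC3D, in exon 6 at chr22:39031715-39031819, was identical to that of APOBEC3F over all 105 bases. APOBEC3C differed from APOBEC3D and APOBEC3F at 4 of the 105 bases (96.2% identity), so these 3 sites form a closely related group. APOBEC3G stood further away, with 46 differences from APOBEC3F and 40 from APOBEC3H.

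The longest stretch of exon sequence shared without a mismatch by APOBEC3A and APOBEC3B was 194 bases, chr22:38961387-38961580 and chr22:38991332-38991525, which is longer than a single read of 150 bases. Of all words of 150 bases in the exons of each gene, 72.4% were unique on chromosome 22 for APOBEC3B, against 96.4% for APOBEC3A, 96.5% for APOBEC3D, 98.0% for APOBEC3G, 98.8% for APOBEC3F and 100% for APOBEC3C and APOBEC3H. The authors kept only uniquely mapped reads, so part of APOBEC3B's exon sequence could not be counted from a single read, in both lines alike. The run shared with APOBEC3A was not its only copy. The zinc site of APOBEC3B nearest the N terminus was identical to that of APOBEC3F over all 105 bases. Which copies account for the other words that were not unique was not examined.

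Annotation limited a different member. APOBEC3D shared 2104 of its 2529 exon bases (83.2%) with ENSG00000284554, a gene on the same strand that spans APOBEC3C and APOBEC3D. The deposited header shows no option for fragments that overlap more than 1 gene, so fragments on shared bases were assigned to neither gene, and ENSG00000284554 was listed at 0 in all 10 libraries. APOBEC3D was therefore counted on 425 bases, of which 424 lie at chr22:39021113-39021536 and only 17 are coding. APOBEC3A and APOBEC3B shared 348 bases with each other, 14.8% and 18.4% of their exons. APOBEC3C shared 17 bases, 0.643% of its exons, and APOBEC3F, APOBEC3G and APOBEC3H shared none.

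**Figure D1:**
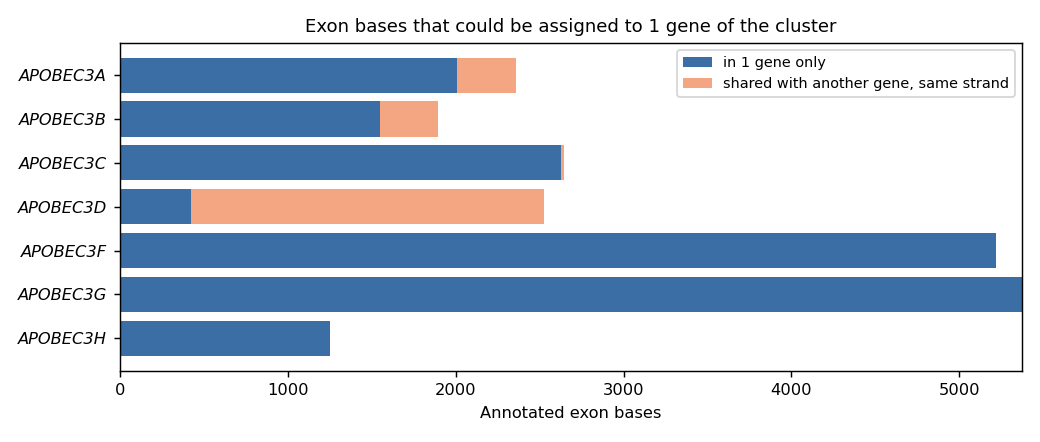
Annotated exon bases of the 7 APOBEC3 genes (x axis, bases) in cluster order, split into bases in 1 gene only (blue) and bases shared with another gene on the same strand (orange). APOBEC3D has 425 bases of its own out of 2529, while APOBEC3F, APOBEC3G and APOBEC3H share none.

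Total counts were 9257843 to 10247941 in T24 and 9591379 to 10840954 in T24R2. Library-size factors by TMM were 0.936 to 0.951 and 1.04 to 1.07, respectively, and levels are given as CPM, normalised counts scaled to a common library size with these factors. A gene was called when edgeR's quasi-likelihood test gave a Benjamini-Hochberg adjusted p under 0.05 with an absolute log2 fold change over 0.5. Of 16181 genes that passed the filter on low counts, 26.5% were called lower and 24.9% were called higher in T24R2, with a median log2 fold change of 0.01, and in 31.3% every T24R2 library was below every T24 library. The keratins KRT7, KRT8 and KRT18 of epithelial cells were abundant in both lines, KRT7 at 2242 and 1370.0 CPM. Of the other keratins listed, KRT19 was at 267 CPM in T24 and 0.0887 CPM in T24R2. KRT5 had at most 6 counts in any library, and KRT20 had 0. Of the uroplakins of differentiated urothelium, UPK2 was at 9.90 CPM in T24 and 2.74 CPM in T24R2, UPK1A had at most 7 counts in any library, and UPK1B and UPK3A at most 3, as did CDH1. The urothelial regulators PPARG, FOXA1 and GATA3 were at 75.9, 66.7 and 22.1 CPM in T24 and at 26.2, 13.8 and 0.214 CPM in T24R2. All 11 tested urothelial and epithelial markers were called lower in T24R2. Of these, KRT19, GATA3, ELF3, GRHL3 and EPCAM had at most 5 counts in any T24R2 library. They passed the filter through T24 alone, so they had to be lower. None of 11 blood cell markers passed the filter, their summed level was 1.87 to 2.80 CPM in T24 and 0.983 to 3.17 CPM in T24R2, and the lymphocyte and leukocyte markers CD2, MS4A1 and CD48 were at 0 in every library. Others in that list had a few counts, with the pan-leukocyte marker PTPRC at up to 1 count in T24 and 10 in T24R2, CD14 at up to 16 and 2, and CD68 at up to 8 and 17. The 4 tested fibroblast and endothelial markers of 8 were called lower, and the summed level of the 8 was 236 to 287 CPM in T24 and 2.58 to 3.93 CPM in T24R2, with CDH5 making up most of it in T24. PDGFRB and CDH5, with at most 9 counts in any T24R2 library, likewise passed through T24 alone and had to be lower. The part of these markers in the APOBEC3 differences was not tested.

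APOBEC3B, APOBEC3C, APOBEC3F and APOBEC3G passed the filter, and each of these 4 was called lower and none (0) higher in T24R2. APOBEC3G passed through its T24 counts alone, so it had to differ, and because the family was chosen on these differences nothing is read from 4 of 4 beside the 26.5% of all tested genes. APOBEC3A, APOBEC3D and APOBEC3H did not pass and were not tested. The lines did not overlap in CPM for APOBEC3B, APOBEC3C, APOBEC3D, APOBEC3F and APOBEC3G, set beside 31.3% of tested genes with every T24R2 library below every T24 library, and they overlapped for APOBEC3A and APOBEC3H. In bulk RNA, fewer cells that express a gene and less of its RNA per cell cannot be told apart.

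**Figure D2:**
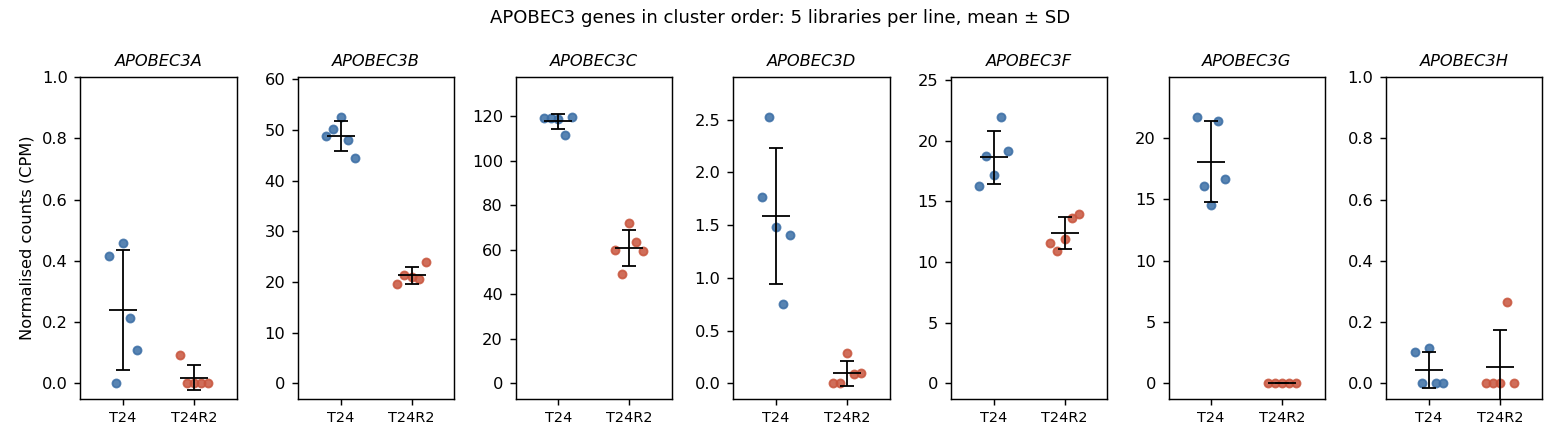
Normalised counts (CPM, linear axis with its own range in each panel) of the 7 APOBEC3 genes in cluster order, with 1 point per library (5 T24, blue; 5 T24R2, red) and bars for the mean ± SD. All 5 T24R2 libraries are at 0 for APOBEC3G, and the lines are apart for APOBEC3B, APOBEC3C, APOBEC3D and APOBEC3F.

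APOBEC3A (ENSG00000128383.13, chr22:38952741-38992778) encodes a nuclear deaminase that is inducible by interferon in myeloid cells and active on genomic DNA. Its counts in T24 replicates 1 to 5 were 4, 0, 4, 2 and 1, and in T24R2 they were 1, 0, 0, 0 and 0. Counts were low in every library, and the lines overlapped. The summed counts were 11 and 1, and the mean levels, 0.239 and 0.0184 CPM, were under the 0.323 and 0.277 CPM that 3 counts per library stand for in T24 and T24R2, so no fold is given. Fragments on the 348 exon bases annotated in both APOBEC3A and APOBEC3B were counted for neither gene.

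APOBEC3B (ENSG00000179750.16, chr22:38982347-38992804) encodes a nuclear deaminase with paired domains. In T24 it was at 48.9, 50.3, 52.6, 48.0 and 44.5 CPM in replicates 1 to 5, from 412 to 478 counts. In T24R2 it was at 19.7, 21.3, 20.9, 20.6 and 24 CPM, from 215 to 246 counts. Every T24R2 library was lower than every T24 library. The mean of 48.8 ± 2.98 CPM (SD, n = 5) stood against 21.3 ± 1.61 CPM (SD, n = 5), a log2 fold change of -1.20 (SE 0.08), so that T24R2 held 43.6% of the T24 level.

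APOBEC3B-AS1 (ENSG00000249310.2, chr22:38991559-38998209) is an antisense gene that overlaps the end of APOBEC3B, covering 12.9% of APOBEC3B's exon bases. It was at 18.2 ± 2.73 CPM (SD, n = 5) in T24 and 8.25 ± 1.46 CPM in T24R2, with a log2 fold change of -1.15 (SE 0.13). Counting used strand option 1, but the library kit is not described as marking strand, so fragments of APOBEC3B and of its antisense partner cannot be told apart where they overlap. The ratio of antisense to APOBEC3B counts was 0.374 ± 0.0590 in T24 and 0.388 ± 0.0691 in T24R2, a difference smaller than either SD. With all counts of the antisense gene taken off APOBEC3B, including those outside the overlap, the log2 ratio of the mean CPM went from -1.20 to -1.23. Both genes fell by a similar ratio, so this step could hardly move the value. It does not show how many APOBEC3B counts came from the antisense strand.

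APOBEC3C (ENSG00000244509.4, chr22:39014257-39020352), a protein with a single domain and comparatively weak antiviral activity, was the most abundant member in both lines. It was at 119, 119, 119, 111 and 120 CPM in T24 replicates 1 to 5, from 1036 to 1149 counts. In T24R2 it was at 59.9, 49.2, 71.9, 63.3 and 59.5 CPM, from 568 to 749 counts. The lines did not overlap, and T24R2 replicates 2 and 3 were the lowest and the highest of their line. The means were 118 ± 3.53 and 60.8 ± 8.15 CPM (SD, n = 5 each), with a log2 fold change of -0.96 (SE 0.06) and 51.6% of the T24 level left. The spread relative to the mean was wider in T24R2 (coefficient of variation 13.4%) than in T24 (3.00%), a difference that was not tested.

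APOBEC3D (ENSG00000243811.12, chr22:39021113-39033277) encodes a deaminase with paired domains that acts on HIV-1 lacking its Vif protein. The 5 T24 libraries had 17, 24, 13, 7 and 13 counts, or 1.76, 2.52, 1.49, 0.753 and 1.40 CPM. The 5 T24R2 libraries had 0, 0, 3, 1 and 1 counts, at most 0.288 CPM, so the lines did not overlap even at these low counts. Summed counts of 74 and 5 gave a ratio per library size of 0.0579, with an exact 95% interval of 0.0182 to 0.141 for counting error. These counts describe the 425 bases that ENSG00000284554 does not share, 424 of them at the start of the gene and 1 at its end, and the rest of the transcript was not measured.

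APOBEC3F (ENSG00000128394.17, chr22:39040604-39055972), another Vif-sensitive restriction factor of the cytoplasm, differed least of the members that passed the filter. In T24 it was at 16.3, 18.7, 17.1, 21.9 and 19.1 CPM in replicates 1 to 5, from 150 to 204 counts. In T24R2 it was at 11.6, 10.9, 11.9, 13.6 and 14.0 CPM, from 124 to 153 counts. The highest T24R2 library lay below the lowest T24 library. The means were 18.6 ± 2.17 and 12.4 ± 1.33 CPM (SD, n = 5 each), with a log2 fold change of -0.59 (SE 0.11), or 66.5% of the T24 level. Without TMM scaling the log2 fold change was -0.43 and APOBEC3F was not called, since that setting moved the median of all tested genes from 0.01 to 0.18.

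APOBEC3G (ENSG00000239713.9, chr22:39077067-39087743), the member best known for blocking HIV-1 that lacks Vif and for its preference for CC over TC dinucleotides, was counted in T24 alone. The T24 replicates 1 to 5 had 209, 153, 127, 199 and 154 counts, or 21.7, 16.1, 14.5, 21.4 and 16.6 CPM, with a mean of 18.1 ± 3.27 CPM (SD, n = 5). Each of the 5 T24R2 libraries had 0 counts. A count of 0 allows up to 3 counts per library, or 0.277 CPM in T24R2, so the level was at least 65.2-fold lower in T24R2. APOBEC3G shares no exon base with another annotated gene on either strand, and 98.0% of its 150-base words were unique on chromosome 22. Of the 16181 tested genes, 95 (0.587%) had 0 counts in all T24R2 libraries, and 16 (0.0989%), APOBEC3G included, did so with at least as many T24 counts as APOBEC3G's 842.

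APOBEC3H (ENSG00000100298.16, chr22:39097224-39104067), the most divergent member in its zinc domain and variable in stability between human haplotypes, was near 0 in both lines. Its counts were 1, 0, 1, 0 and 0 in T24 and 0, 0, 0, 3 and 0 in T24R2. Both lines were at or under the limit of 3 counts per library, so no fold is given.

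Levels can be compared between members only per length, and per kb of annotated exon the order in T24 was APOBEC3C, APOBEC3B, APOBEC3F, APOBEC3G, APOBEC3D, APOBEC3A and APOBEC3H. APOBEC3C was at 44.5 ± 1.33 CPM per kb and APOBEC3B at 25.8 ± 1.57 (SD, n = 5), and no library of one reached the other. APOBEC3F at 3.58 ± 0.417 and APOBEC3G at 3.36 ± 0.609 CPM per kb were next and overlapped, with ranges of 3.12 to 4.21 and 2.7 to 4.04. Their annotated exons cover 5215 and 5375 bases, against 4496 and 1564 bases in their canonical transcripts. The order of APOBEC3F and APOBEC3G therefore depends on the divisor, and APOBEC3G stands lower by annotated exon than by canonical transcript. APOBEC3D, APOBEC3A and APOBEC3H were at 0.627, 0.101 and 0.0349 CPM per kb, and the last pair overlapped. Among all tested genes in T24, 93.5% had a lower level per kb of annotated exon than APOBEC3C, 88.0% than APOBEC3B, 42.2% than APOBEC3F and 40.5% than APOBEC3G.

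In T24R2, APOBEC3C and APOBEC3B again led with 23.0 ± 3.08 and 11.2 ± 0.850 CPM per kb, followed by APOBEC3F with 2.38 ± 0.255. The other 4 members were under 0.05 CPM per kb on average, and their order rests on a few counts. Summed over the 7 genes, the level was 78.0 ± 1.77 CPM per kb in T24 and 36.7 ± 3.24 in T24R2. APOBEC3C made up 57.1% ± 1.48 of that sum in T24 and 62.5% ± 3.57 in T24R2, and APOBEC3B 33.0% ± 1.46 and 30.8% ± 3.36. APOBEC3F took 4.59% ± 0.624 and 6.49% ± 0.580, whereas the 4.32% ± 0.818 of APOBEC3G in T24 was 0 in T24R2.

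The divisor mattered for APOBEC3D and for the shares of the sum. Over the exon bases that belong to 1 gene only, a divisor chosen after seeing the data, APOBEC3D was at 3.73 ± 1.51 CPM per kb in T24, placed just ahead of APOBEC3F and overlapping it, against 0.224 in T24R2. On the same scale APOBEC3B was at 31.6 and 13.8 CPM per kb, still below APOBEC3C. With coding length in place of exon length, APOBEC3C was at 207 and 107, APOBEC3B at 42.6 and 18.6, APOBEC3F at 16.7 and 11.1 and APOBEC3G at 15.7 and 0 CPM per kb in T24 and T24R2, in the same order. By coding length APOBEC3C made up 72.9% of the sum in T24 and 77.9% in T24R2, and APOBEC3B 15.0% and 13.8%.

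**Figure D3:**
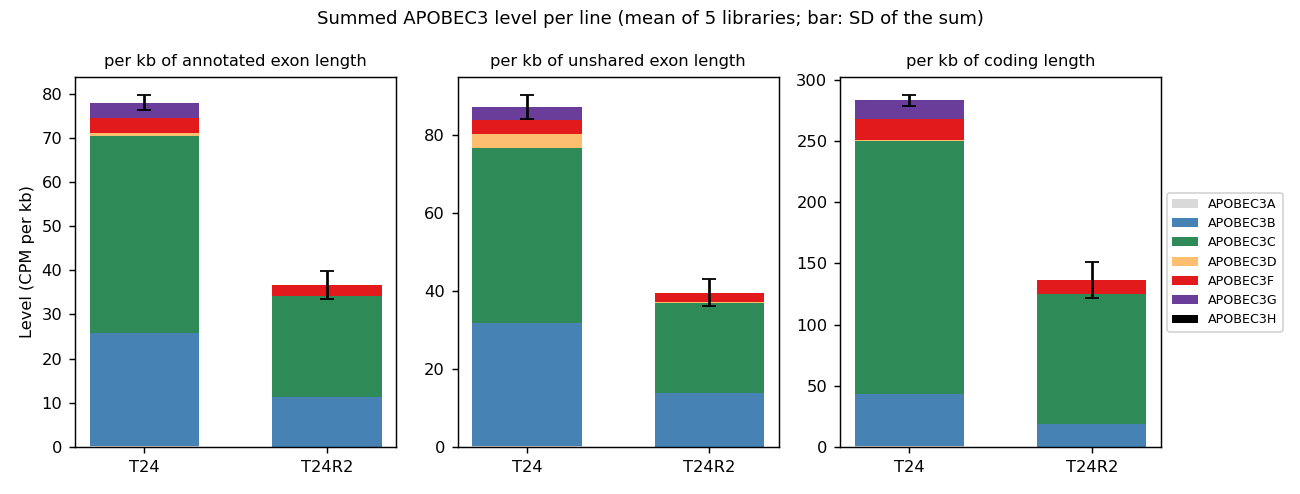
Summed level of the 7 APOBEC3 genes (y axis, CPM per kb, from 0) in T24 and T24R2, as the mean of 5 libraries, stacked by gene, with the SD of the sum. The panels divide by annotated exon length, unshared exon length and coding length, and in each of them APOBEC3C and APOBEC3B are the thickest layers and the T24R2 sum is under the T24 sum (36.7 against 78.0 by annotated exon length).

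Within the cluster, APOBEC3B-AS1 was the only tested gene beside the 4 members, and no tested gene was called higher. The nearest tested genes on the APOBEC3A side were CBX6, a Polycomb subunit, at 80.5 kb with a log2 fold change of -0.04 and edgeR adjusted p = 0.49, and NPTXR, a neuronal pentraxin receptor, at 109 kb. NPTXR rose from 3.09 ± 0.741 to 18.0 ± 2.30 CPM (log2 fold change 2.54, SE 0.15, edgeR adjusted p = 4.2e-18). Further out, at 159 kb, the dynein light chain gene DNAL4 had a log2 fold change of -0.12 (edgeR adjusted p = 0.33).

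On the APOBEC3H side, CBX7, another Polycomb subunit, lay 16.1 kb away with a log2 fold change of 0.24 (edgeR adjusted p = 0.012), under the fold that was required for a call. ENSG00000279833, which lies opposite CBX7 and overlaps 17.9% of its exon bases, had a log2 fold change of 0.05 (edgeR adjusted p = 0.73). PDGFB, which encodes a platelet-derived growth factor chain, fell at 119 kb from 247 ± 11.5 to 60.2 ± 4.91 CPM (log2 fold change -2.03, SE 0.05, edgeR adjusted p = 3.6e-30). The flanks thus held 1 gene called higher, 1 called lower and 4 not called. On the whole chromosome, 70 of 401 tested genes were called higher and 113 lower, with a median log2 fold change of -0.09. This stands beside 24.9% called higher and 26.5% called lower among tested genes of all chromosomes. The number of copies of the locus was not measured.

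**Figure D4:**
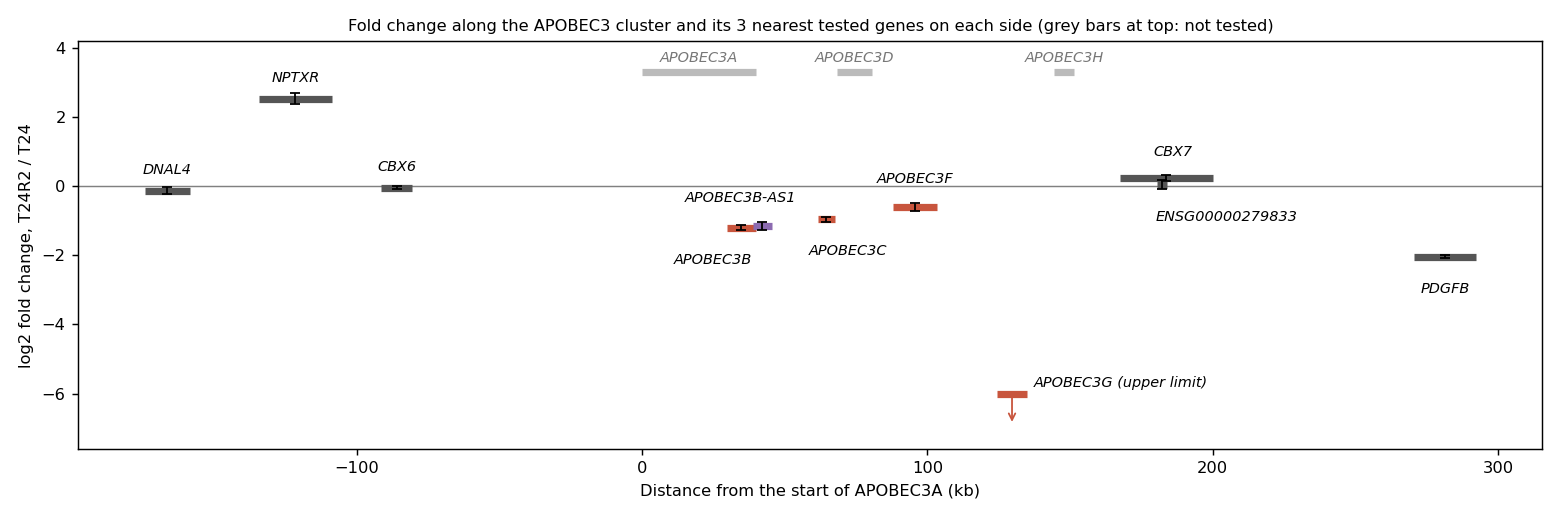
Log2 fold change, T24R2 over T24 (y axis), against distance from the start of APOBEC3A (x axis, kb) for the tested genes of the cluster (red, APOBEC3; purple, APOBEC3B-AS1) and the 3 nearest tested genes on each side (dark grey), with SE bars. Horizontal bars show each gene's extent, APOBEC3G is drawn at the upper limit set by its counts of 0 with a downward arrow, and the untested APOBEC3A, APOBEC3D and APOBEC3H are pale bars at the top. NPTXR lies at 2.54 and PDGFB at -2.03 on either side of a cluster whose tested APOBEC3 genes are at -0.59 or lower.

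The 5 tested genes whose log2 CPM profile, centred on the gene's mean, was closest to that of APOBEC3C over the 10 libraries were SYNGR2, PYGL, RHOG, ACTG1 and PEX16. Their root mean square differences from APOBEC3C were 0.0615, 0.0710, 0.0738, 0.0830 and 0.0832 on the log2 scale, and none lies on chromosome 22. SYNGR2, for instance, was at 190 and 94.6 CPM in T24 and T24R2. For APOBEC3G the 4 closest were SLC52A3, MAGEA11, WDR72 and CHCHD10, with differences of 0.152, 0.163, 0.178 and 0.186. Like APOBEC3G, these 4 were at 0 CPM in T24R2 and between 16.7 and 20.2 CPM in T24, and CHCHD10 is on chromosome 22 as well. The likeness is a description over libraries of 2 lines and mostly follows the difference between them.

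Among relatives of the APOBEC3 genes outside the cluster, the RNA editor APOBEC1, APOBEC2 and APOBEC4 did not pass the filter. APOBEC1 was at 0 in all 10 libraries, APOBEC4 had at most 1 count and APOBEC2 at most 7.

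Of 14 genes of uracil and abasic site repair, 2 were called higher, 3 lower and 9 not called. This stands beside 24.9% and 26.5% of all tested genes called higher and lower. Some of the 9 had an adjusted p under 0.05 and missed only the fold required for a call. The median log2 fold change was -0.11 beside 0.01 over all tested genes. UNG, the main glycosylase for uracil, was at 43.6 ± 4.97 and 44.1 ± 2.19 CPM, with a log2 fold change of 0.02 (SE 0.07, edgeR adjusted p = 0.86). POLB, the gap-filling polymerase of base excision repair, fell from 21.8 ± 2.10 to 9.38 ± 1.13 CPM (log2 fold change -1.21, SE 0.11, edgeR adjusted p = 9.3e-13).

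REV1, a translesion polymerase that inserts C opposite abasic sites, rose from 41.3 ± 1.51 to 67.5 ± 3.05 CPM (log2 fold change 0.71, edgeR adjusted p = 1.5e-13), and EIF5B on the opposite strand overlaps 11% of its exon bases. PARP1, a sensor of DNA strand breaks, rose by a log2 fold change of 0.57 (edgeR adjusted p = 6.5e-15). DUT, which removes dUTP from the nucleotide pool, fell by 0.57 on the log2 scale (edgeR adjusted p = 3.6e-12), with 14.5% of its exon bases opposite another gene. The fifth called gene was SMUG1, a second uracil glycosylase, with a log2 fold change of -0.53.

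Among 22 transcription factors and complex subunits that have been linked to APOBEC3 transcription, 21 were tested, of which 2 were called higher, 4 lower and 15 not called (median log2 fold change -0.19). NFKB2, the non-canonical NF-kB subunit, fell from 207 ± 7.95 to 73.8 ± 2.72 CPM (log2 fold change -1.49, SE 0.05, edgeR adjusted p = 4.3e-27), whereas its partner RELB was at 31.4 ± 2.49 and 34.4 ± 2.62 CPM (0.13, edgeR adjusted p = 0.12). The other NF-kB subunits listed were under the fold for a call. NFKB1 and REL rose by 0.39 and 0.49 on the log2 scale (edgeR adjusted p = 5.1e-09 and 0.002), and RELA fell by 0.29 (edgeR adjusted p = 1.4e-06). TFDP1, the dimerization partner of E2F proteins, fell from 180 ± 14.5 to 68.0 ± 3.02 CPM (log2 fold change -1.40, edgeR adjusted p = 1.7e-24). E2F1 itself had a log2 fold change of -0.47 (edgeR adjusted p = 1.6e-07), under the fold for a call.

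GABPA, an ETS-family factor, rose by a log2 fold change of 0.71 (edgeR adjusted p = 1e-13), and 12.1% of its exon bases lie opposite another gene. IRF9, a DNA-binding subunit of the interferon response, was not tested. It had at most 7 counts in any library, and 42.2% of its exon bases are shared with another gene on the same strand.

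Most of the called interferon-stimulated genes were lower in T24R2. All 26 in the list were tested, and 14 were called lower, 2 higher and 10 not called (median log2 fold change -0.69). RSAD2, an antiviral enzyme that makes a chain-terminating nucleotide, fell from 3.99 ± 0.845 to 0.459 ± 0.228 CPM (log2 fold change -3.08, SE 0.33, edgeR adjusted p = 5.9e-11). EPSTI1 fell by 2.60 on the log2 scale (edgeR adjusted p = 8.8e-15), CMPK2, the neighbour of RSAD2 that overlaps it on the opposite strand, by 2.01 (adjusted p = 1.2e-06), and MX2, a restriction factor of HIV-1, by 1.47 (adjusted p = 3e-11). The 2 called higher, HERC6 and HERC5, ubiquitin ligases of the ISG15 system, had log2 fold changes of 1.16 and 0.97 and were named after their values were seen.

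Of 14 NF-kB target genes, 13 were matched by symbol and 12 tested, and 10 were called lower, 1 higher and 1 was not called, with a median log2 fold change of -1.48. CCL20, a chemokine for lymphocytes and dendritic cells, fell from 7.30 ± 1.05 to 0.262 ± 0.204 CPM (log2 fold change -4.76, SE 0.32, edgeR adjusted p = 1.6e-16). ICAM1, an adhesion molecule with 25.4% of its exon bases opposite other genes, fell from 226 ± 9.95 to 17.3 ± 2.59 CPM (-3.71, edgeR adjusted p = 9.2e-36). TNFAIP3, the feedback inhibitor A20, fell from 247 ± 24.2 to 37.2 ± 3.20 CPM (-2.73, edgeR adjusted p = 5e-32). CXCL8, the neutrophil chemokine interleukin 8, fell from 381 ± 26.3 to 100.3 ± 11.4 CPM (-1.92, edgeR adjusted p = 3.6e-28). The 1 gene called higher, IL6, a cytokine named after its values were seen, rose from 7.45 ± 1.88 to 28.3 ± 3.02 CPM (1.92, edgeR adjusted p = 2.7e-17), with 20.7% of its exon bases opposite other genes.

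The 14 DREAM and cell cycle targets were all tested, and 8 were called lower, 0 higher and 6 not called (median log2 fold change -0.87). Those 6 had an edgeR adjusted p under 0.05 and missed only the fold required for a call. Of the 6, MCM6 and FOXM1 rose, by log2 fold changes of 0.49 and 0.21, and the others fell. CDK1, the mitotic kinase, fell from 186 ± 3.15 to 55.7 ± 2.57 CPM (log2 fold change -1.74, SE 0.05, edgeR adjusted p = 5.1e-29), and AURKB, the kinase of the chromosomal passenger complex, fell by 1.63 on the log2 scale (edgeR adjusted p = 7.1e-25). MKI67, the proliferation antigen Ki-67, fell from 737 ± 27.9 to 318 ± 18 CPM (-1.21, edgeR adjusted p = 2.3e-25), and BIRC5, the apoptosis inhibitor survivin, fell by 1.20 (edgeR adjusted p = 2.6e-23).

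The other restriction factors of retroviruses and nucleic acid sensors were mixed. Of 15 genes, 13 were tested, and 2 were called higher, 6 lower and 5 not called (median log2 fold change -0.14). TRIM22, an interferon-inducible ubiquitin ligase with antiviral activity, fell from 35.4 ± 3.62 to 1.76 ± 0.283 CPM (log2 fold change -4.33, SE 0.13, edgeR adjusted p = 9.6e-28), with 10.8% of its exon bases shared with OR56B1. TRIM5, which binds retroviral capsids, fell from 57.6 ± 2.73 to 23.1 ± 3.24 CPM (-1.31, edgeR adjusted p = 3.5e-18), and IFITM1, a membrane protein that blocks viral entry, fell by 1.34 (edgeR adjusted p = 2.7e-22), with 21.1% of its exon bases shared. ADAR, which deaminates adenosine in double-stranded RNA, rose from 236 ± 2.32 to 387 ± 14.9 CPM (0.71, edgeR adjusted p = 2e-18). TREX1, a DNA exonuclease, was listed at 0 in all libraries, and all 1448 of its exon bases are shared with ATRIP.

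**Figure D5:**
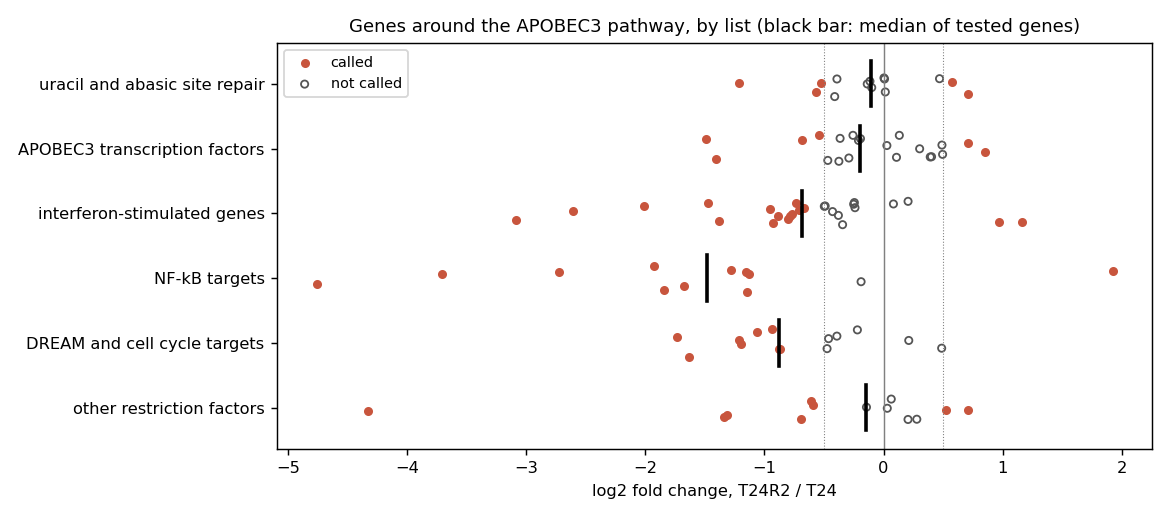
Log2 fold change, T24R2 over T24 (x axis), of the tested genes in 6 lists around the APOBEC3 pathway (rows), with filled points for called genes, open points for genes not called, dotted lines at an absolute value of 0.5 and a black bar at each list's median. The medians run from -1.48 for NF-kB targets to -0.11 for uracil and abasic site repair, beside 0.01 over all tested genes.

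The lists were chosen with earlier results of these libraries known, and no test of a list against other genes was made. Some listed genes passed the filter through T24 alone and had to be lower. Among them are RSAD2 and CCL20, with at most 9 and 5 counts in any T24R2 library. Each list's counts stand beside 26.5% of all tested genes called lower and 24.9% called higher, and its relation to the APOBEC3 levels was not tested.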

How the data were processed

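RNA was sequenced from 5 T24 and 5 T24R2 libraries, for which the labels give no batch or date. The authors aligned reads with STAR 2.7.0 to hg38 with GENCODE release 39, removed duplicates and multiply mapped reads with SAMtools 1.10, and deposited raw counts per gene from featureCounts 2.0.1 (paired fragments, strand option 1), without normalization. Positional removal of duplicates can lower the counts of abundant transcripts.

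From these counts, edgeR 4.0.16 in R 4.3.3 was run over all genes passing filterByExpr (16181), with TMM, glmQLFit, glmQLFTest and Benjamini-Hochberg adjustment, and genes were called at the study's thresholds. The biological coefficient of variation was 6.61%. Within-line library pairs (20) differed beyond sampling noise, so none was counted as a duplicate. A count of 0 was taken to allow 3 counts per library. Intervals for summed counts were exact, at 95%, and cover counting error only. Exon overlaps came from the coordinates in the tables. Zinc sites were found by a His, Glu and Cys-Cys pattern in translated canonical coding sequence. SciPy 1.17.1, pandas 2.3.3 and matplotlib 3.10.9 were used. The steps were tested on simulated counts.

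Named genes were the 7 members with every library, the 3 nearest tested genes on each side, annotated genes inside the cluster, up to 4 called genes per list with the largest absolute log2 fold change, UNG, NFKB2, RELB and E2F1, and the 5 genes most like APOBEC3C and APOBEC3G. SMUG1, IL6, HERC5, HERC6, IRF9, TREX1, MCM6, FOXM1, NFKB1, REL, RELA, the relatives outside the cluster and the cell type markers named were added after their values were seen. The members and lists were chosen with earlier results of these data known. Alternatives were other scalings, filters and thresholds, DESeq2 1.42.0, limma-voom (limma 3.58.1), removal of mitochondrial genes, a replicate block, other lengths and leaving out each library. SOD2 was not matched. Some named genes and 1 list are not reported here.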

Additional observations from a re-analysis of the deposited data

Results flagged for a closer look

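In T24 replicate 4, APOBEC3C was at 111 CPM, apart from the other 4 T24 libraries, which were all at 119 to 120 CPM, by more than the gap expected within 5 values at the 95% level. Among 9 groups of 5 libraries checked (1 gene in 1 line), 1 such gap was found, where chance gives 0.45. Without that library the log2 fold change of APOBEC3C was -0.98, against -0.96 with it.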

How the results depend on the processing

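APOBEC3B, APOBEC3C, APOBEC3F and APOBEC3G kept their direction under each alternative that tested them. The log2 fold change ranged from -1.23 to -1.03 for APOBEC3B, -0.97 to -0.79 for APOBEC3C and -0.60 to -0.43 for APOBEC3F over these alternatives. Leaving out each library in turn gave -1.24 to -1.17, -1.02 to -0.88 and -0.64 to -0.53, all called, and 4 to 5 members called lower. Fitted values for APOBEC3G, all negative, depend on the prior count and are not used. Called lower were 3 members with no scaling beyond library size (APOBEC3F not called, -0.43), 3 with a mean of at least 100 counts (APOBEC3G not tested) and 6 with no count filter, which tests and calls APOBEC3A and APOBEC3D too. APOBEC3D passed the filter and was called without T24 replicate 4 or without any 1 of the T24R2 replicates. With at most 3 counts in any T24R2 library, APOBEC3D passed through its T24 counts alone and had to be lower. Its call therefore adds no support. With an absolute log2 fold change over 1 required, 2 members were called, as APOBEC3C (-0.96) and APOBEC3F (-0.59) fell short, and the number called was 2 transcription factors, 5 DREAM and cell cycle targets, 6 interferon-stimulated genes, 3 other restriction factors and 1 repair gene. All tested genes called higher and lower were then 1918 and 2293, against 4027 and 4282, and 2350 and 2641 with a mean of at least 100 counts, where 10 interferon-stimulated genes were called against 16. The drops at an absolute log2 fold change over 1 follow from the stricter cut on the same tested genes. Those at a mean of at least 100 counts follow from fewer genes being tested. With no scaling, 5206 genes were called higher and 3431 lower, and the median of all genes moved to 0.18. Of the replicate numbers, only number 2 correlated best with its own number (same-number correlations -0.021 to 0.016), so no pairing by number was seen. This cannot show whether same-numbered libraries were handled together. The fit with a replicate block called 4 members lower, with -1.20 for APOBEC3B, -0.96 for APOBEC3C and -0.59 for APOBEC3F, and 3979 and 4261 genes higher and lower. APOBEC3A and APOBEC3H had at most 4 counts in any library, and APOBEC3D was counted on 425 of 2529 exon bases.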

Other observations

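Of the 4 other annotated genes inside the cluster, APOBEC3B-AS1 is described above. ENSG00000284554 and ENSG00000225720 had 0 counts in all 10 libraries, and ENSG00000259421, between APOBEC3F and APOBEC3G, had 1 count in each line.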
